A study of Caenorhabditis elegans with 6 samples.

Results

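The let-7 family was represented on these arrays by 4 microRNAs (miRNAs), let-7, miR-48, miR-84 and miR-241. They were chosen as the spots whose target name is 1 of these 4, which gave 4 of the 108 miRNAs named on the array and 16 of its 576 spots. The RNA came from whole adult Caenorhabditis elegans of 2 genotypes. fem-2(b245ts) animals carry a temperature-sensitive loss-of-function allele of the sex determination gene fem-2, and at the restrictive temperature their germ line makes oocytes and no sperm. fem-3(q20ts) animals carry a temperature-sensitive gain-of-function allele of fem-3, and their germ line makes sperm and no oocytes. Cultures of both genotypes grew at 25 °C. They were harvested as day 1 adults, 24 h beyond late L4, the last larval stage, and no wild-type array was analysed here. Each genotype had 2 biological replicates, the first hybridised to 2 technical arrays and the second to 1, which makes 6 arrays of 4 biological samples.

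The let-7 family acts in the heterochronic pathway, which times the passage from one larval stage to the next in the hypodermal seam cells and other somatic tissues. Its members share the seed, the 5′ bases through which a miRNA pairs with its targets. let-7 represses lin-41 at the change from larva to adult, and miR-48, miR-84 and miR-241 act together in earlier larval stages, where they repress hbl-1. In adults, miR-84 and miR-241 are also known from work on animals without a germ line, in which the nuclear receptor DAF-12 activates them and they form part of the signal that extends lifespan. In the annotation, let-7 and mir-84 lie on chromosome X, while mir-48 and mir-241 are neighbouring miRNA genes on chromosome V.

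None of the 4 members passed the test between oogenic and spermatogenic adults. The log2 intensity differences, fem-2(b245ts) minus fem-3(q20ts), were -0.34 for miR-48, -0.14 for let-7, -0.070 for miR-241 and 0.22 for miR-84. Across all 94 miRNAs tested, 8 passed (limma, adjusted p under 0.05), or 8.51%, with 7 (7.45%) higher and 1 (1.06%) lower in fem-2(b245ts), against 0 of 4 in the let-7 family. The 7 higher ones were miR-35 to miR-41, the miRNAs of oocytes and embryos described below, and outside these 1 of 87 passed. At an unadjusted limma p under 0.05 there were 0 of 4 members, against 10 of 94 miRNAs (10.6%) and 3 of the 87. At such shares a count of 0 of 4 says nothing particular about the family. By sign alone 3 of 4 members were lower in fem-2(b245ts), against 57.4% of the 94, and 1 of 4 was higher, against 42.6%. The median difference of the 4 was -0.10, close to the median of -0.14 over all 94 miRNAs.

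The labels were checked on miR-35 to miR-41, miRNAs that oocytes and embryos hold in large amounts. Their summed share of the miRNA signal was 11.8%, 14.2% and 13.9% in fem-2(b245ts), against 0.353%, 0.390% and 0.478% in fem-3(q20ts). All arrays were scaled by the authors to one total, so that these miRNAs take a larger share of that total in fem-2(b245ts). The median spot intensity of an array ranged from 111 to 178 in fem-2(b245ts) and from 101 to 118 in fem-3(q20ts). In whole animals, fewer cells of a type and less RNA per cell cannot be told apart.

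let-7, the founding member, had intensities of 229 and 447 on the technical arrays of fem-2(b245ts) replicate 1 and 557 in replicate 2, against 395 and 471 on those of fem-3(q20ts) replicate 1 and 502 in replicate 2. The lowest and the highest array were both fem-2(b245ts), and the fem-3(q20ts) arrays lay between them. Averaged over technical arrays, let-7 was at 439 ± 168 in fem-2(b245ts), against 466 ± 49.96 in fem-3(q20ts) adults (SD over n = 2 biological samples of each genotype). The difference of -0.14 (SE 0.39) did not pass (limma adjusted p = 0.909). Its sign was not the same in the 2 replicates, with -0.43 in replicate 1 and 0.15 in replicate 2. The 95% confidence interval of the fold, fem-2(b245ts) over fem-3(q20ts), ran from 0.456 to 1.81.

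miR-48, which acts with miR-84 and miR-241 in the early larval stages, had intensities of 2295, 1496 and 2103 on the fem-2(b245ts) arrays, against 2179, 2097 and 2929 on the fem-3(q20ts) arrays. The highest array was replicate 2 of fem-3(q20ts), and the ranges of the genotypes overlapped. The means were 1978 ± 177 in fem-2(b245ts), against 2533 ± 560 in fem-3(q20ts) adults (SD over n = 2 each). The difference of -0.34 (SE 0.33) was negative in both replicates, at -0.21 and -0.48, and did not pass (limma adjusted p = 0.656). The interval of the fold ran from 0.442 to 1.41. Of all 94 miRNAs, 77.7% had one sign in both replicates.

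miR-84, which like let-7 is encoded on chromosome X, had intensities of 249, 403 and 401 on the fem-2(b245ts) arrays, against 222, 308 and 358 on the fem-3(q20ts) arrays. The ranges of the genotypes overlapped. The means were 359 ± 59.8 in fem-2(b245ts), against 310 ± 68.0 in fem-3(q20ts) adults (SD over n = 2 each). The difference of 0.22 (SE 0.34) was 0.28 in replicate 1 and 0.17 in replicate 2 and did not pass (limma adjusted p = 0.814). The interval of the fold ran from 0.639 to 2.13. miR-84 was the only member with a positive difference, and the sign turned under 4 alternative settings and on leaving out 1 sample: at -0.12 after quantile normalization, -0.14 after median centring, -0.34 on the spike control, -0.053 from the scanner files of replicate 1 and -0.0048 without fem-3(q20ts) replicate 1.

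miR-241, encoded beside miR-48, had intensities of 140, 159 and 218 on the fem-2(b245ts) arrays, against 201, 225 and 169 on the fem-3(q20ts) arrays. The order of the genotypes was opposite in the 2 replicates, with differences of -0.51 and 0.37. The means were 184 ± 48.3 in fem-2(b245ts), against 191 ± 30.9 in fem-3(q20ts) adults (SD over n = 2 each). The difference of -0.070 (SE 0.35) did not pass (limma adjusted p = 0.909), and the interval of the fold ran from 0.511 to 1.78. On the technical arrays of fem-2(b245ts) replicate 1 it was 1.11 and 1.40 times the 95th percentile of the 32 spots named Buffer, used here as the background level, whereas on the other 4 arrays it was 5.42 to 10.2 times that level.

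**Figure D1:**
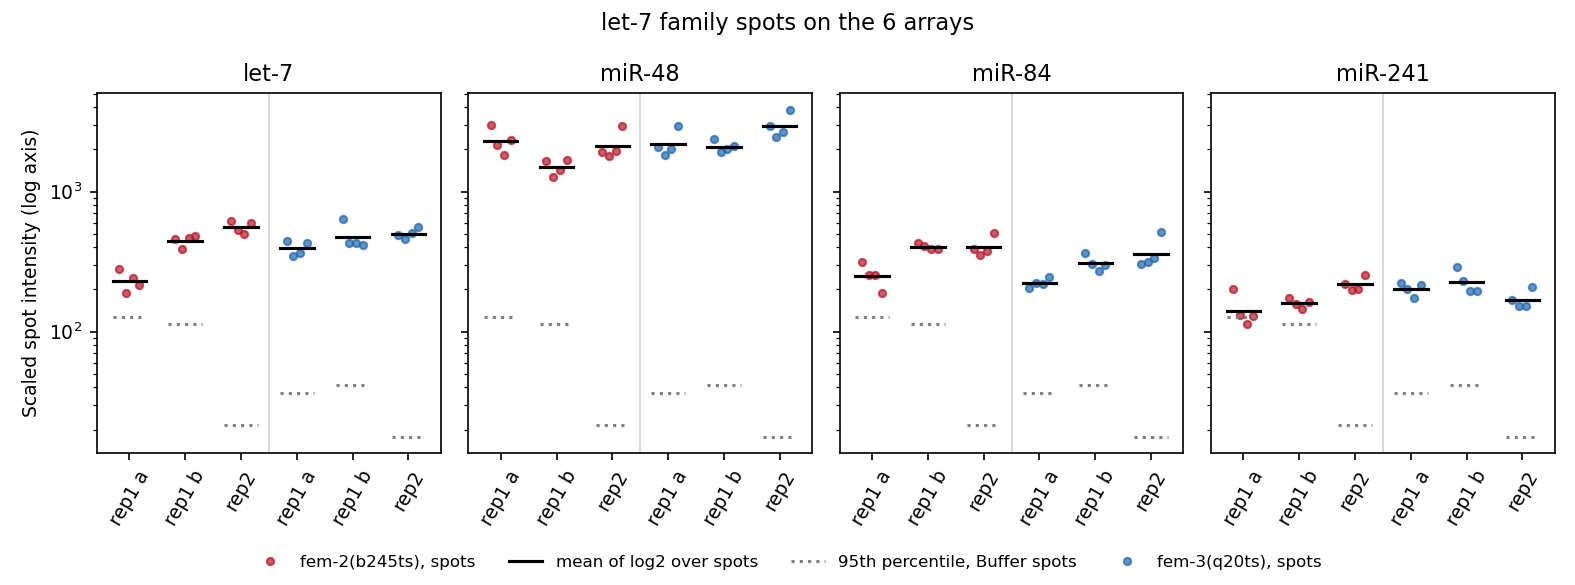
Scaled intensity of every spot of the 4 let-7 family miRNAs on a log axis, with the 3 fem-2(b245ts) arrays left of the 3 fem-3(q20ts) arrays in each panel; black bars are the means of log2 over the 4 spots and dotted bars the 95th percentile of the Buffer spots of that array. The genotypes overlap for each miRNA, and let-7 on 1 technical array of fem-2(b245ts) replicate 1 (229) lies apart from the other array of that sample (447).

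Every member was above the Buffer level on 6 of 6 arrays, as were 59 of the 108 miRNAs named on the array, members included. In fem-2(b245ts), 7 of 8 let-7 spots and 6 of 8 miR-241 spots of replicate 1 had a signal-to-noise score over 3, against 8 of 8 for each in fem-3(q20ts). All 16 spots of miR-48 and of miR-84 on these arrays had one. No member spot was saturated.

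No member's arrays separated the genotypes. Of the 94 miRNAs, 28.7% had no overlap between the 3 arrays of fem-2(b245ts) and the 3 of fem-3(q20ts), a share at which 0 of 4 says nothing particular about the family. In each genotype 2 of these 3 arrays carried the same RNA sample. Summed over the family, the 4 members had shares of 3.81%, 3.32% and 3.58% in fem-2(b245ts), against 3.42%, 3.51% and 4.21% in fem-3(q20ts), which also overlapped. Most of this summed signal came from miR-48 on every array, so the sum mainly follows that member. The 95% intervals of the 4 log2 differences reached 0.84 to 1.00 to either side of the estimate. With the replicate number as a block in the limma fit, the estimates were the same and the 95% intervals ran from -0.89 to 0.20 for miR-48, -0.83 to 0.55 for let-7, -0.94 to 0.80 for miR-241 and -0.29 to 0.73 for miR-84. Changes inside these intervals could not be told from the spread between these samples, and the missed threshold does not show that the genotypes had the same level.

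**Figure D2:**
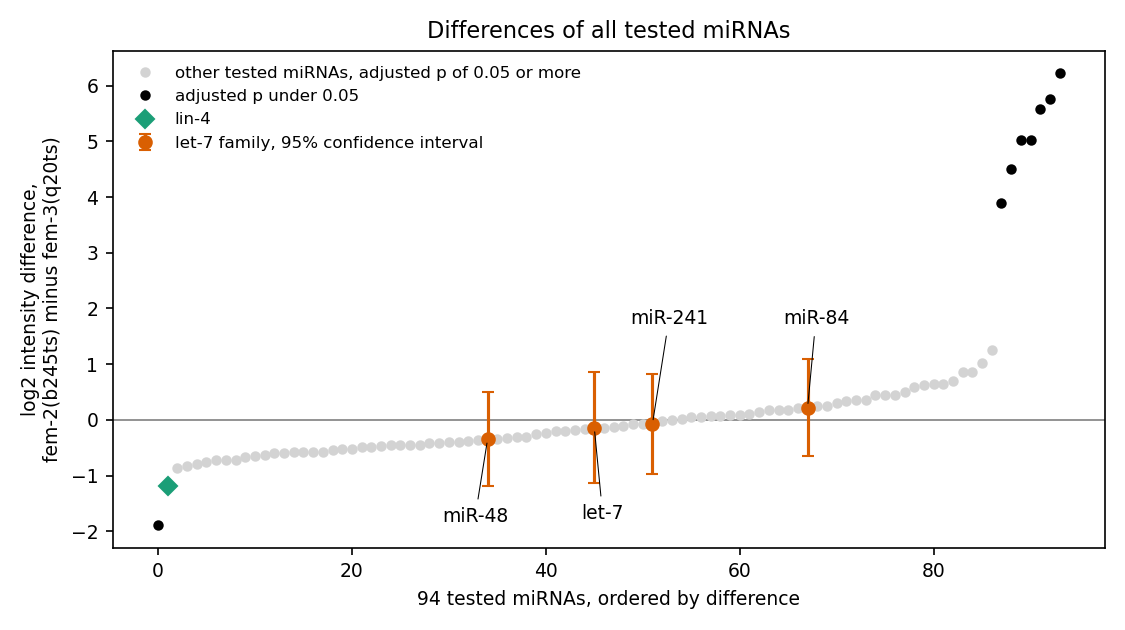
Log2 intensity difference, fem-2(b245ts) minus fem-3(q20ts), of the 94 tested miRNAs in rising order; orange points are the let-7 family with 95% confidence intervals, the green diamond is lin-4 and black points passed an adjusted p of 0.05. The 4 members lie between -0.34 and 0.22, among the uncalled miRNAs, and each interval crosses 0.

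The members did not all move together from array to array. The technical arrays of fem-2(b245ts) replicate 1 carried the same RNA, yet let-7 was 1.95 times and miR-84 1.62 times as bright on the second as on the first, while miR-48 was 1.53 times as bright on the first. The individual spots showed the same. let-7 read 190 to 281 on the first array and 387 to 479 on the second, miR-84 read 188 to 314 and 386 to 432, and miR-48 read 1831 to 2986 and 1265 to 1684, with no overlap in these 3 miRNAs. miR-241 read 113 to 202 and 144 to 173, which overlapped. Of the 94 tested miRNAs, let-7 had the lowest and miR-84 the second lowest log2 difference between these arrays, -0.96 and -0.70. Between the technical arrays of fem-3(q20ts) the differences were -0.25 for let-7, -0.47 for miR-84, 0.055 for miR-48 and -0.16 for miR-241. For each of the 4 members the difference between arrays of one fem-2(b245ts) RNA sample was thus larger than the difference between genotypes.

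The differences between technical arrays were set beside the place of the spots. The arrays were printed in 4 sets, blocks of spots called A to D in the scanner files, with miR-48 in A, miR-84 in C, and let-7 and miR-241 in D. Leaving out the family and miR-35 to miR-41, all 22 other tested miRNAs in set A and all 19 in set B were brighter on the first technical array of fem-2(b245ts) replicate 1, with median log2 differences of 0.54 and 0.77. All 21 in set C were dimmer there, with a median of -0.40, and in set D 14 of 21 were dimmer, with a median of -0.086. miR-48 at 0.62 and miR-241 at -0.18 fell inside the range of their own sets. miR-84 and let-7 fell below all 21 others of theirs, so that the median of set D was far from the difference of let-7. On the fem-3(q20ts) technical arrays the set medians were -0.17, -0.055, -0.23 and 0.19 for A to D. There miR-84 had the sign of its set's median, whereas miR-48, let-7 and miR-241 had the opposite sign.

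**Figure D3:**
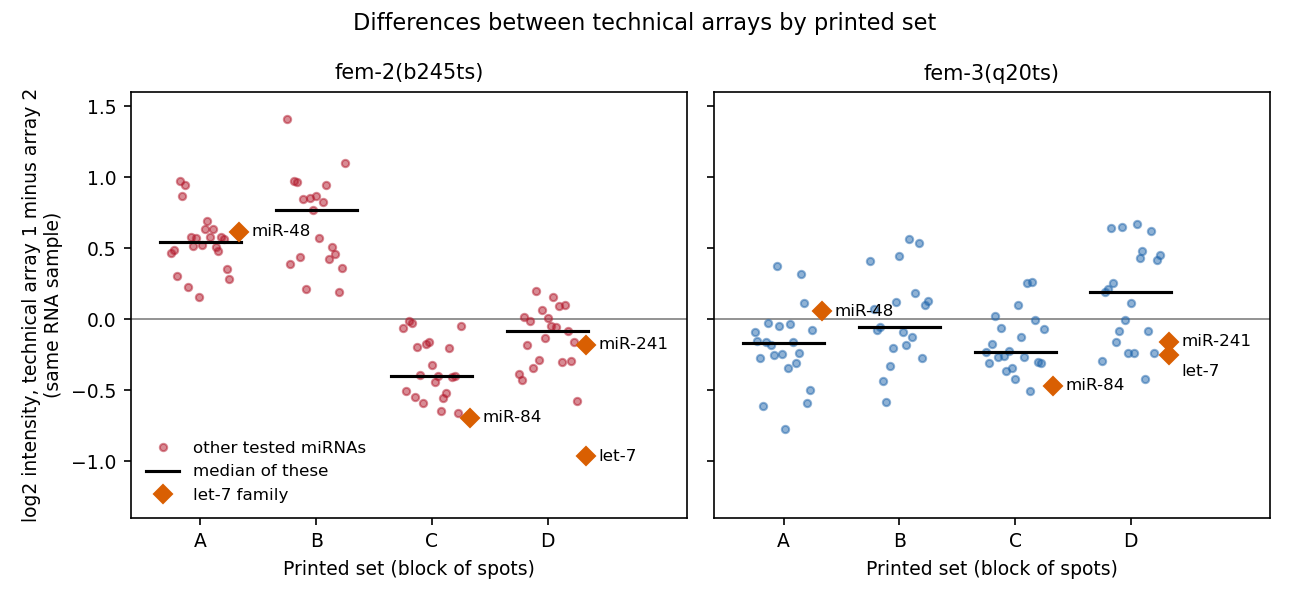
Log2 intensity of technical array 1 minus array 2 of replicate 1 for each tested miRNA outside miR-35 to miR-41, by printed set, with fem-2(b245ts) on the left and fem-3(q20ts) on the right; black bars are medians of the miRNAs outside the let-7 family and orange diamonds are its members. In fem-2(b245ts), every point of sets A and B lies above 0 and every point of set C below 0, with let-7 at -0.96 and miR-84 at -0.70 below all other miRNAs.

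The genotype differences were also set beside those of each member's printed set. The median difference, fem-2(b245ts) minus fem-3(q20ts), of the other tested miRNAs was -0.42 in set A, 0.18 in B, -0.34 in C and -0.24 in D. miR-48 at -0.34 lay near the median of set A, with 12 of 22 others lower. miR-84 at 0.22 had 16 of 21 lower in set C. In set D, 14 of 21 were lower than let-7 and 16 of 21 lower than miR-241. Each set holds different miRNAs, so a difference tied to the set and one tied to the miRNAs in it cannot be told apart. After each set of each array was centred on its own median, an alternative chosen after this pattern was seen, the differences were 0.13 for miR-48 and 0.015 for miR-241, whose signs turned, and 0.25 for miR-84 and -0.055 for let-7, whose signs did not, with no member past the threshold.

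The ratio of 2 members on one array does not change with the scaling of that array, so the 6 possible ratios were compared between genotypes. Only the shift of a ratio was read, not its size, because oligos differ in how brightly they report. The log2 ratio of miR-48 to miR-84 was 2.55 and 2.39 in the fem-2(b245ts) samples, against 3.03 and 3.03 in the fem-3(q20ts) samples. It did not overlap between genotypes over samples, with a shift of -0.56. On single arrays it did overlap, at 3.20, 1.89 and 2.39 in fem-2(b245ts) against 3.29, 2.77 and 3.03 in fem-3(q20ts). The log2 ratio of let-7 to miR-84 was 0.014 and 0.47 in fem-2(b245ts), against 0.72 and 0.49 in fem-3(q20ts), a shift of -0.36. On single arrays it did not overlap, at -0.12, 0.15 and 0.47 in fem-2(b245ts) against 0.83, 0.61 and 0.49 in fem-3(q20ts), and in replicate 2 the shift was -0.014. For both ratios the exact permutation test gave a two-sided p of 0.333, the smallest that 2 samples against 2 allow, and an adjusted p of 1 over the 6 ratios. The other 4 ratios shifted in opposite directions in the 2 replicates. After centring within printed sets the shift was -0.12 for miR-48 to miR-84 and -0.30 for let-7 to miR-84.

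The heterochronic miRNAs outside the family were lin-4, which represses lin-14 and lin-28 in the first larval stages, and its relative miR-237. lin-4 had intensities of 438, 457 and 710 on the fem-2(b245ts) arrays, against 960, 1127 and 1575 on the fem-3(q20ts) arrays. All 3 fem-2(b245ts) arrays were lower than all 3 fem-3(q20ts) arrays, unlike for any let-7 family member. Such a lack of overlap, in either direction, was seen in 28.7% of the 94 miRNAs. lin-4 was printed in set C. The tested miRNAs of that set outside the family and miR-35 to miR-41, lin-4 among them, had a median difference of -0.34. The part of the printed set in the lin-4 values was not tested. The lin-4 difference of -1.18 (SE 0.40) did not pass (limma adjusted p = 0.299). It did when the replicate number was a block in the fit (adjusted p of 0.0417 in limma), where 9 of 94 miRNAs passed. After centring within printed sets it was -1.16 (limma adjusted p = 0.379). On scaling outside miR-35 to miR-41 it was -0.86 (limma adjusted p = 0.279), and leaving out 1 sample put it between -1.52 and -0.85. miR-237 was at 69.2 ± 9.11 in fem-2(b245ts), against 97.0 ± 31.9 in fem-3(q20ts) adults (SD over n = 2 each). It had a difference of -0.45 (limma adjusted p = 0.625) and exceeded the Buffer level on 1 of the 3 fem-2(b245ts) arrays, against 3 of the 3 fem-3(q20ts) arrays. That count depends on the Buffer level, which was 127 and 114 on the technical arrays of fem-2(b245ts) replicate 1. On those of fem-3(q20ts) replicate 1 it was 36.5 and 41.5. miR-237 itself read 76.6 and 51.5 on the former arrays, against 73.2 and 75.6 on the latter. The difference of miR-237 was -1.14 after quantile normalization, and leaving out 1 sample put it between -0.79, when that sample was fem-3(q20ts) replicate 1, and -0.11, when it was replicate 2 of that genotype.

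miR-71, a miRNA needed for the long life of animals without germ cells, had intensities of 3389, 2527 and 2574 on the fem-2(b245ts) arrays, against 2784, 3043 and 2406 on the fem-3(q20ts) arrays. Its difference was 0.053 (SE 0.31; limma adjusted p = 0.909), with overlapping ranges and a sign that turned under 6 alternatives. Of miR-71, miR-84 and miR-241, tied to the lifespan signal from the germ line, 0 of 3 passed, against 8.51% of all 94 miRNAs, a share at which a count of 0 says nothing particular about these miRNAs. Among 5 tested markers of somatic tissues, 3 had a negative and 2 a positive difference, close to the 57.4% of all 94 miRNAs that were lower in fem-2(b245ts). The count of negatives was 2 after centring within printed sets, 4 after quantile normalization and 5 after median centring or on the spike control, settings under which the median of all 94 differences was -0.041, -0.44, -0.50 and -0.70, against -0.14 as reported. They were miR-60 of the intestine (-0.75), miR-228 of glia (-0.42), miR-124 of neurons (-0.41), miR-1 of muscle (0.17) and miR-71, with limma adjusted p-values from 0.390 to 0.909. The neuronal marker lsy-6 was not among the spots analysed here.

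The miRNAs most like each member were sought by the root mean square difference between log2 profiles over the 6 arrays, each profile centred on its own mean. For miR-48 they were miR-124, miR-50 and miR-237, at 0.072, 0.075 and 0.098, against a median of 0.41 over all other miRNAs. All 3 were printed in set A, as was miR-48. For miR-84 they were miR-1, at 0.076, miR-239b, at 0.24, and miR-34, at 0.27, of which miR-1 and miR-34 share its set C. For let-7 they were miR-244, at 0.20, and miR-87 and miR-34, both at 0.25. For miR-241 they were miR-87, miR-63 and miR-58, at 0.17, 0.19 and 0.21. Among those of let-7 and miR-241, miR-244, miR-63 and miR-58 share their set D, while miR-87 and miR-34 are in set C. Between members the value was 0.31 to 0.52. Each member had at least 3 miRNAs outside the family closer to it than any member, but far more miRNAs lie outside the family than in it. Among let-7, miR-84 and miR-241 the values were 0.31 to 0.39, under their medians over the miRNAs outside the family of 0.56, 0.55 and 0.44. miR-48 was at 0.52 from let-7 and 0.49 from miR-84, over its own median, and at 0.38 from miR-241, under it. Of these 3, the number still found after centring within printed sets was 2 for miR-48, 2 for miR-84, 1 for let-7 and 0 for miR-241. After quantile normalization it was 0, 2, 0 and 1.

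**Figure D4:**
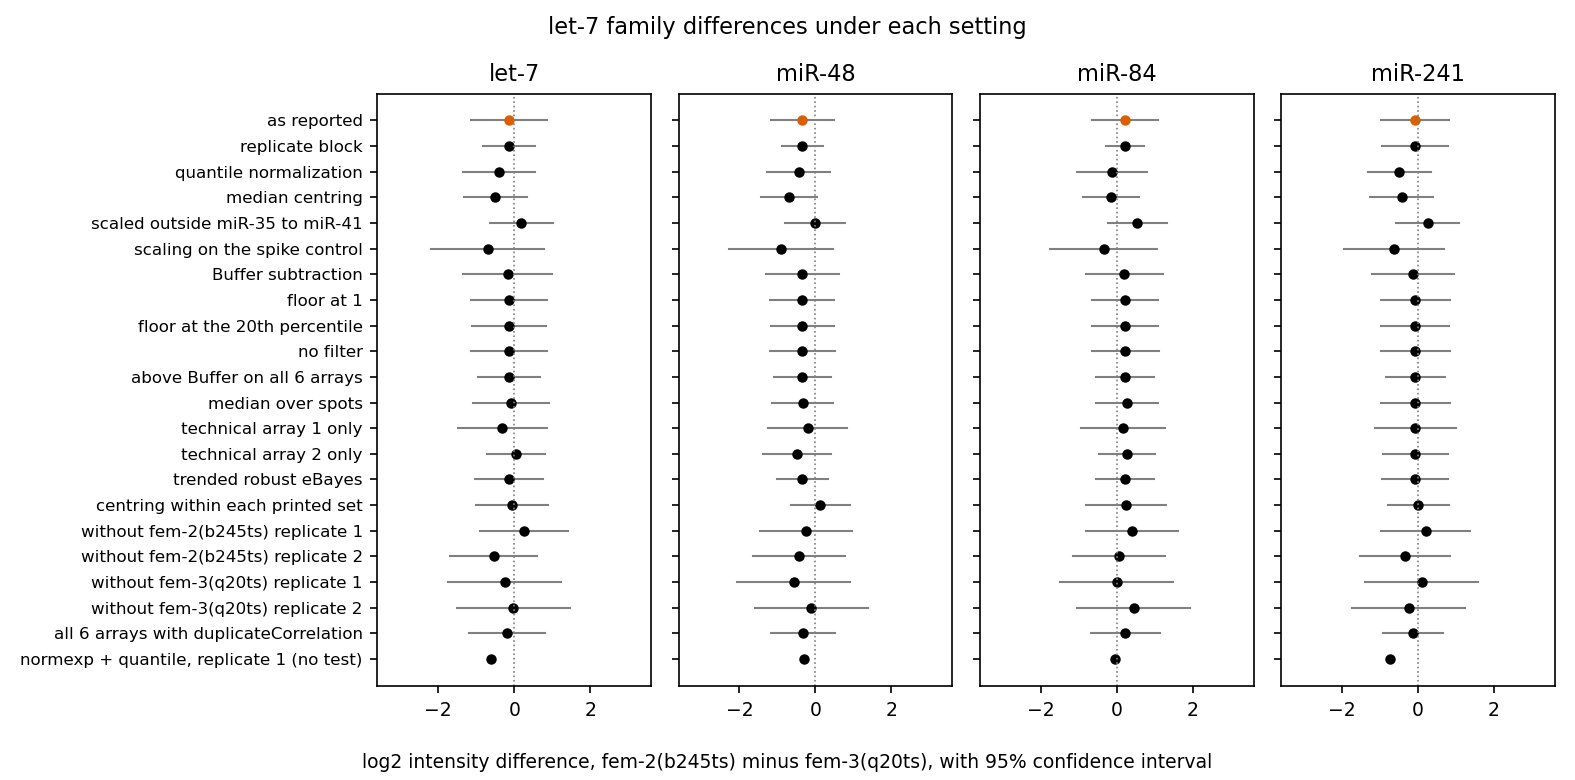
Log2 intensity difference, fem-2(b245ts) minus fem-3(q20ts), of each let-7 family member as reported (orange) and under each alternative setting (black), with 95% confidence intervals where a test was possible. Every interval crosses 0, and the estimates run from -0.90 for miR-48 to 0.55 for miR-84.

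The signs of the members depended on the scaling. Quantile normalization, median centring and scaling on the spike control gave 4 of 4 members a lower mean in fem-2(b245ts), against 3 of 4 as reported and 1 of 4 on the miRNAs outside miR-35 to miR-41. The median of all 94 differences moved with them, from -0.14 as reported to -0.44 after quantile normalization, -0.50 after median centring, -0.70 on the spike control and 0.19 on the miRNAs outside miR-35 to miR-41. Median centring and the scalings apply a single factor to each array, which shifts all miRNAs above the floor alike. Relative to that median the family median was thus 0.031 as reported and under these by construction. Quantile normalization, which is no such shift, gave 0.020. It moved the members unequally, to -0.44 for miR-48, -0.41 for let-7, -0.12 for miR-84 and -0.49 for miR-241. Without fem-2(b245ts) replicate 1, whose technical arrays differed by printed set, the differences were 0.26 for let-7, 0.20 for miR-241, 0.39 for miR-84 and -0.25 for miR-48.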

How the data were processed

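Gel-purified short RNA was labelled with Cy3 by ligation and hybridised, 1 sample per array, per the labels' protocols. The authors deposited a table of spot intensity on a linear scale, in which they brought all arrays to one total. The deposited scanner files, used for the 4 arrays of replicate 1, hold spot and background intensity, a signal-to-noise score and the percent of saturated pixels of each spot, per the file headers. Spot names come from these files and were carried over by spot number to the 2 arrays of replicate 2. The scanner, its software and the oligo sequences were not given in the sources used here.

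Values under 12.8, the 10th percentile of positive intensities, were set to it. Log2 values were averaged over an oligo's 4 spots, then over technical arrays. A miRNA was tested if its mean exceeded the 95th percentile of the Buffer spots (36.5), which kept 94 of 108 and all 4 members. The unpaired difference, fem-2(b245ts) minus fem-3(q20ts), was tested two-sided with limma 3.58.1 (lmFit, eBayes) under R 4.3.3 (2 residual and 3.05 prior degrees of freedom), with Benjamini-Hochberg adjustment over the 94. The fit was tested on simulated data with planted differences far larger than those of the members. That test does not show whether changes of the members' size would be found. The labels call the 2 samples of a genotype biological replicates without saying how they were raised. The p-values measure only the spread between such samples, which limma moderated towards that of all tested miRNAs. The small number of arrays limits the precision.

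Same-numbered samples, whose arrays share a token in the descriptions, were paired only in the differences within a replicate and in the replicate block. The meaning of this token is unknown, and the reported test, with its SE, intervals and p-values, was left unpaired. Over the 94 miRNAs, replicate 1 minus replicate 2 in one genotype had r = 0.711 with that in the other. The unpaired fit does not use this shared part. With the block the SE was 0.23 for let-7, 0.18 for miR-48, 0.17 for miR-84 and 0.29 for miR-241, each smaller than in the unpaired fit. Alternatives covered the replicate block, scaling, background, floor, filter, technical arrays, printed sets and each sample left out. Chromosomes and gene neighbours come from the WBcel235 annotation, in which 4 of 4 members matched. The members, lists and tests were chosen with earlier results of these data known. Named in the text are the members, lin-4, miR-237, miR-71, the 3 miRNAs most like each member, and fixed markers of oocytes and of somatic tissues.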

Additional observations from a re-analysis of the deposited data

How the results depend on the processing

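No let-7 family member passed the threshold under any alternative run, with limma adjusted p-values from 0.153 to 0.995. Signs did change. let-7 turned to 0.18 on scaling outside miR-35 to miR-41 and to 0.038 with technical array 2 only. miR-48 turned to 0.13 after centring within printed sets. miR-84 turned to -0.12 after quantile normalization, -0.14 after median centring and -0.34 on the spike control. miR-241 turned to 0.25 on scaling outside miR-35 to miR-41 and to 0.015 within printed sets. Normexp and quantile normalization of the replicate 1 scanner files gave -0.62 for let-7, -0.053 for miR-84 and -0.72 for miR-241. Leaving out 1 biological sample gave -0.54 to 0.26 for let-7 (0.26 without fem-2(b245ts) replicate 1), -0.57 to -0.11 for miR-48, -0.0048 (without fem-3(q20ts) replicate 1) to 0.45 for miR-84, and -0.34 to 0.20 for miR-241 (0.20 on leaving out fem-2(b245ts) replicate 1, 0.097 on leaving out fem-3(q20ts) replicate 1). miR-237 turned to 0.021 within printed sets, and was -1.14 after quantile normalization, -0.81 after median centring, -1.01 on the spike control, -0.13 on scaling outside miR-35 to miR-41 and -0.79 to -0.11 on leaving out 1 sample. miR-71 turned to -0.31 after median centring, -0.51 on the spike control, -0.086 with technical array 2 only and -0.23 within printed sets, and leaving out 1 sample put it between -0.085 (fem-3(q20ts) replicate 2) and 0.19, with -0.040 when fem-2(b245ts) replicate 1 was left out. The replicate block left each difference as it was and changed the call of lin-4 alone among the named miRNAs tested (-1.18, limma adjusted p = 0.0417). The number of miRNAs past the threshold was 4 when only the 59 above Buffer on all arrays were tested, a smaller set by construction, and 7 to 9 otherwise. The shift of let-7 to miR-48 was -0.22 within replicate 1, 0.63 within replicate 2 and -0.19 within printed sets. That of let-7 to miR-84 was -0.71 within replicate 1 and -0.014 within replicate 2. That of miR-48 to miR-84 was -0.48 and -0.64 in the 2 replicates, -0.37 and -0.76 with technical array 1 or 2 only, and -0.12 within printed sets. Those of miR-48 and miR-84 to miR-241 were 0.30 and 0.78 within replicate 1 and -0.85 and -0.20 within replicate 2. The causes of these changes were not tested. The Buffer level of 127 and 114 on the technical arrays of fem-2(b245ts) replicate 1, against 17.8 to 41.5 on the other 4 arrays, limits what can be read of miR-241 and miR-237 there.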

Other observations

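The printed sets also differed on the other arrays. As the median deviation of a set's miRNAs from their own means over the 6 arrays, leaving out the let-7 family and miR-35 to miR-41, set A, which holds miR-48, was at 0.0064, -0.48 and 0.049 on the fem-2(b245ts) arrays, against -0.10, -0.00018 and 0.57 on the fem-3(q20ts) arrays. miR-48 was itself lowest on the second technical array of fem-2(b245ts) and highest on replicate 2 of fem-3(q20ts), the same 2 arrays. Set C, which holds miR-84, was at -0.58, -0.10 and -0.13 in fem-2(b245ts), against 0.15, 0.37 and 0.23 in fem-3(q20ts). miR-84 did not follow this order. It was lowest on the first technical array of fem-3(q20ts) and highest on the second of fem-2(b245ts). Set D, which holds let-7 and miR-241, was at -0.50, -0.34 and 0.21 in fem-2(b245ts), against 0.39, 0.16 and 0.10 in fem-3(q20ts). Both members were lowest on the first technical array of fem-2(b245ts), as was their set. Their highest arrays were not that of the set. let-7 was highest on replicate 2 of fem-2(b245ts) and miR-241 on the second technical array of fem-3(q20ts). The part of the printed set in the let-7 family values was not tested.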
